A study of Arabidopsis thaliana with 12 samples.

Results

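JAZ (JASMONATE ZIM-DOMAIN) repressors are described here at 10 loci of Arabidopsis thaliana, taken by their locus codes from the 33326 loci of the deposited transcript table. Each locus was represented by its TAIR10 transcript with the highest mean abundance in wild type, and all 10 were among the 20458 loci whose transcript passed the filter on low counts. The members were JAZ1 (AT1G19180), JAZ2 (AT1G74950), JAZ3 (AT3G17860), JAZ5 (AT1G17380), JAZ6 (AT1G72450), JAZ7 (AT2G34600), JAZ8 (AT1G30135), JAZ9 (AT1G70700), JAZ10 (AT5G13220) and JAZ12 (AT5G20900). Their numbering has gaps, so the values cover these 10 loci and not every JAZ gene. Leaf RNA was sequenced from 4 groups of 3 libraries each, named bou-2 day, WT day, bou-2 night and WT night. The mutant bou-2 is 1 T-DNA insertion line in the Col-0 background, with the insertion in the second exon of BOU (AT5G46800), a mitochondrial carrier needed for photorespiration, and WT is Col-0. All plants, controls included, had grown for 35 days in air with 3000 ppm CO2 and had been moved to ambient CO2 24 h before harvest. By the design text, day samples were taken 2 h after and night samples 2 h before the onset of light. The titles call the day samples the beginning of the day and another label field of the same samples calls them the end of the day. The methods of the study give other harvest times and whole rosettes rather than mature leaves, so the sampling point is known only as day or night.

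JAZ proteins hold the basic helix-loop-helix transcription factors MYC2, MYC3 and MYC4 inactive, through the adaptor NINJA and the co-repressor TOPLESS or, in some JAZ proteins, by binding TOPLESS directly. When jasmonoyl-isoleucine accumulates, after wounding or attack for instance, the F-box receptor COI1 binds JAZ proteins, they are ubiquitinated and degraded, and the MYC factors are released. Most JAZ genes are themselves MYC targets, so that the repressors are made again soon after they are lost, and in leaves a rise of JAZ transcripts is a common sign of a jasmonate response.

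MYC factors bind the G-box CACGTG and related letters, so the 300 bases before each RefSeq gene start were searched in the TAIR10.1 genome for CACGTG and for AACGTG on both strands (CACGTG reads the same on both, AACGTG becomes CACGTT on the other). CACGTG was present in 4 of the 10 member windows and in 7.09% of 27443 windows of protein-coding genes, AACGTG in 4 of 10 and 8.71%, and at least one of them in 7 of 10 and 15%. JAZ3 held the most matches, with 2 CACGTG and 1 AACGTG, and none was found in these windows of JAZ1, JAZ9 or JAZ10. The 4 windows shown are those of JAZ10 and JAZ3, the 2 members called different between the genotypes, and of JAZ2 and JAZ6, whose levels ran closely together over the libraries (Pearson r = 0.97). JAZ2 ran as closely with JAZ9 (r = 0.98), whose window held no match. The windows are written 5′ to 3′ on the strand of the gene, with both motifs on either strand in capitals.
JAZ10, chr5:4218486-4218785, forward strand: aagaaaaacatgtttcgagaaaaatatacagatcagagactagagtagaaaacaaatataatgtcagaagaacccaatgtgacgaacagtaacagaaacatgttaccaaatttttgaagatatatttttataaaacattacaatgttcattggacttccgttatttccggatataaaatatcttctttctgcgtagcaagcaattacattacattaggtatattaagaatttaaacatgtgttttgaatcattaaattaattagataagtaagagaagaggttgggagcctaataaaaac
JAZ3, chr3:6119407-6119706, forward strand: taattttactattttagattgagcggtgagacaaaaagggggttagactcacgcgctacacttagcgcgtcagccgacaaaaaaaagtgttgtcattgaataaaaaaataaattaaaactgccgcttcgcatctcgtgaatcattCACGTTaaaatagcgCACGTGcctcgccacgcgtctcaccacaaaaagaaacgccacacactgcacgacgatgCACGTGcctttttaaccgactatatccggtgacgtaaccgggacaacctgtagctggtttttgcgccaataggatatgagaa
JAZ2, chr1:28150447-28150746, reverse strand: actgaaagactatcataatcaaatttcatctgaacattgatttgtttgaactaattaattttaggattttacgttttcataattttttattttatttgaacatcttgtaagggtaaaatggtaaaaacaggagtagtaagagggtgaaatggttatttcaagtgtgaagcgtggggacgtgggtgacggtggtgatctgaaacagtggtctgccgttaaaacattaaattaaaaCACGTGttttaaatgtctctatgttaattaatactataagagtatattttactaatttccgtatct
JAZ6, chr1:27276563-27276862, reverse strand: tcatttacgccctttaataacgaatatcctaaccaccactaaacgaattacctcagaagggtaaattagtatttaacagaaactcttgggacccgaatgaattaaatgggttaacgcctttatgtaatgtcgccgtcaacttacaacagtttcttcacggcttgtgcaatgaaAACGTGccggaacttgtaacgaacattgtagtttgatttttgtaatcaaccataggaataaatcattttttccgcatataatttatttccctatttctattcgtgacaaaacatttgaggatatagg

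The libraries held between 15911356 and 33046562 estimated counts, fewest in bou-2 day. As a check of the labels, BOU had 80.2 to 80.7 TPM (transcript abundance, scaled to the same total in every library) in bou-2 day against 139 to 230 TPM in WT day, and 65.2 to 67.0 TPM in bou-2 night against 153 to 176 TPM in WT night. The fitted log2 fold changes of BOU were -1.25 (standard error 0.14, edgeR adjusted p = 0.000235) and -1.41 (0.14, adjusted p = 0.000162), so reads from the disrupted gene were still counted in the mutant. The 5 leaf markers summed to 25538 to 31499 TPM in bou-2 day, 45698 to 60729 TPM in WT day, 30063 to 32645 TPM in bou-2 night and 49706 to 51968 TPM in WT night. The 5 flower markers together stayed at or below 1.97 TPM and the 4 root markers at or below 0.0402 TPM in every library. In leaf RNA, a change in the cells that express a gene and a change in RNA per cell cannot be told apart.

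The WT libraries differed among themselves in jasmonate genes, a pattern noticed after the values were seen. For each library, the ratio of TPM + 1 to the mean of the other libraries of the group was taken per gene. Its median over the 10 JAZ members was 2.45 in WT day replicate 2, 1.73 in WT night replicate 3 and 0.46 in WT night replicate 2, while over all 20458 tested loci it was 0.993, 1.03 and 0.973. In WT day replicates 1 and 3, whose ratios have replicate 2 in the denominator, it was 0.612 and 0.499, and in WT night replicate 1 it was 1.01. In the mutant it lay between 0.899 and 1.2 in all 6 libraries. No library was removed, and values without the high or low libraries are given beside the results they move. No label gives a batch, a harvest tray or an extraction date for these libraries.

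JAZ9 was the most abundant member in all 4 groups, with 84.6 ± 15.2 TPM in bou-2 day, 135 ± 96.3 TPM in WT day, 115 ± 7.16 TPM in bou-2 night and 170 ± 99.3 TPM in WT night (mean ± SD, n = 3). In bou-2 night the order of the mean levels was JAZ9, JAZ12 (85.7 TPM), JAZ6 (84.0), JAZ1 (46.4), JAZ3 (35.9), JAZ2 (27.9), JAZ10 (8.59), JAZ5 (7.53), JAZ7 (3.28) and JAZ8 (0.867). There JAZ12 and JAZ6 were the only neighbours in that order whose libraries overlapped. In WT night the order was JAZ9, JAZ6 (109 TPM), JAZ12 (81.7), JAZ2 (32.5), JAZ1 (21.2), JAZ3 (20.2), JAZ5 (9.77), JAZ10 (6.36), JAZ7 (1.48) and JAZ8 (1.30). There every pair of neighbours overlapped except JAZ12 with JAZ2 and JAZ10 with JAZ7. JAZ7 and JAZ8 rested on 5 to 70 and 2 to 22 estimated counts per library, so only large differences were detectable for them at this depth.

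**Figure D1:**
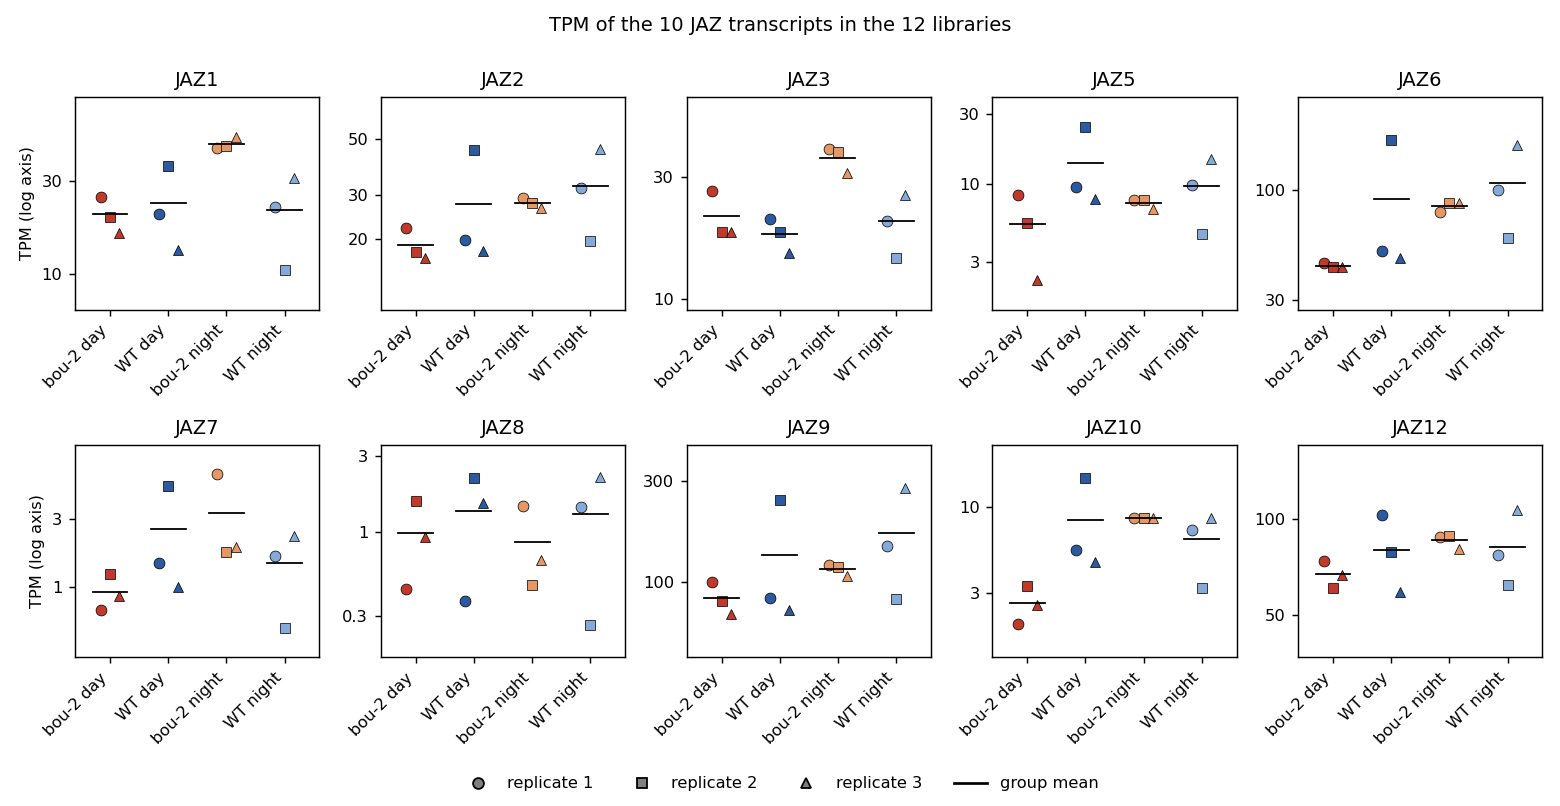
TPM of the 10 JAZ transcripts (log axis, one panel per gene) in bou-2 day, WT day, bou-2 night and WT night; symbols are the 3 libraries of each group and the horizontal line is their mean. In bou-2 night JAZ10 sits between 8.55 and 8.62 TPM, while in WT night it spreads from 3.21 to 8.60 TPM.

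Whether the mutation changed JAZ transcripts in the light was asked with the day libraries. JAZ10 was lower in bou-2, and the other 9 members were not called. JAZ10, whose alternative transcripts encode proteins that differ in their sensitivity to COI1, had 1.93, 3.29 and 2.53 TPM in bou-2 day, against 5.46, 15.1 and 4.64 TPM in WT day. All 3 mutant libraries lay below all 3 WT libraries, and WT day replicate 2 was far above the other WT libraries. Its log2 fold change was -1.77 (standard error 0.48, edgeR adjusted p = 0.0225). JAZ10 lies on chromosome 5, 4218786 to 4221077 of TAIR10.1. The change was -1.04 (adjusted p = 0.0667) if WT day replicate 2 was left out, -1.56 (0.0754) and -1.69 (0.0763) without bou-2 day replicates 1 and 3, and -1.75 (0.0761) in a fit of only the 6 day libraries. Over the tested loci 12.8% were called lower and 14.8% higher in this comparison, so 1 of 10 members lower and 0 of 10 higher did not exceed the background.

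JAZ5 and JAZ6 are a pair of close relatives that can bind TOPLESS through an EAR motif. JAZ6 (chromosome 1, 27273968 to 27276562) had 44.8, 43.0 and 42.9 TPM in bou-2 day, against 51.3, 175 and 47.5 TPM in WT day. The mutant libraries lay just below the WT libraries, and only WT day replicate 2 was far from them. The log2 fold change of JAZ6 was -1.15 (standard error 0.47, adjusted p = 0.102), and without WT day replicate 2 it was -0.28 (adjusted p = 0.554). JAZ5 (chromosome 1, 5955155 to 5957511) had 8.51, 5.49 and 2.28 TPM in bou-2 day, against 9.54, 24.2 and 7.94 TPM in WT day, and the groups overlapped. Its log2 fold change was -1.43 (standard error 0.54, adjusted p = 0.0828), or -0.76 (adjusted p = 0.308) without the same WT library. JAZ10 and JAZ6 were the 2 of 10 members with all mutant libraries below all WT libraries at day, which held for 12.9% of the tested loci. DESeq2's Wald test called JAZ5, JAZ6 and JAZ10 lower at day (adjusted p = 0.0362, 0.0364 and 0.0029). The share of the tested loci that DESeq2 called was not taken.

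JAZ9 and JAZ2 showed the same single high library. JAZ9, a relative of JAZ3 (chromosome 1, 26654529 to 26657350), had 101, 81.9 and 70.9 TPM in bou-2 day, against 84.8, 246 and 73.8 TPM in WT day. JAZ2 (chromosome 1, 28148574 to 28150446), which is known for its part in the reopening of stomata by a bacterial toxin, had 22.1, 17.9 and 16.8 TPM in bou-2 day, against 19.9, 45.1 and 18.0 TPM in WT day. For both genes WT day replicates 1 and 3 lay inside the range of the mutant libraries. Their log2 fold changes were -0.76 (standard error 0.47, adjusted p = 0.276) for JAZ9 and -0.64 (standard error 0.35, adjusted p = 0.216) for JAZ2. Without WT day replicate 2 they were 0.0036 for JAZ9 and -0.0962 for JAZ2.

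The remaining members at day gave log2 fold changes of -0.26 for JAZ1, 0.14 for JAZ3, -1.52 for JAZ7, -0.57 for JAZ8 and -0.34 for JAZ12, with adjusted p between 0.190 and 0.691. JAZ12, a target of the ubiquitin ligase KEG, had a 95% interval of -0.70 to 0.01, and JAZ3 one of -0.24 to 0.52, so for these 2 a change of 1 log2 unit lay outside the interval. For JAZ7 the interval ran from -3.04 to 0.01. Without WT day replicate 2 the value was 0.20 for JAZ1, -0.49 for JAZ7 and -0.10 for JAZ8. JAZ7 (chromosome 2, 14573030 to 14573952) and JAZ8 (chromosome 1, 10596352 to 10597341) form a pair with an EAR motif, and JAZ8 is known to resist COI1 because its degron is altered. JAZ12 lies on chromosome 5, 7090704 to 7092539. Of the 10 values 9 were below 0, with a median of -0.70 against -0.04 over all tested loci, and all 10 share the same 6 libraries. Without WT day replicate 2, 7 of the 10 were below 0 and their median was -0.19, beside -0.03 over the tested loci.

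**Figure D2:**
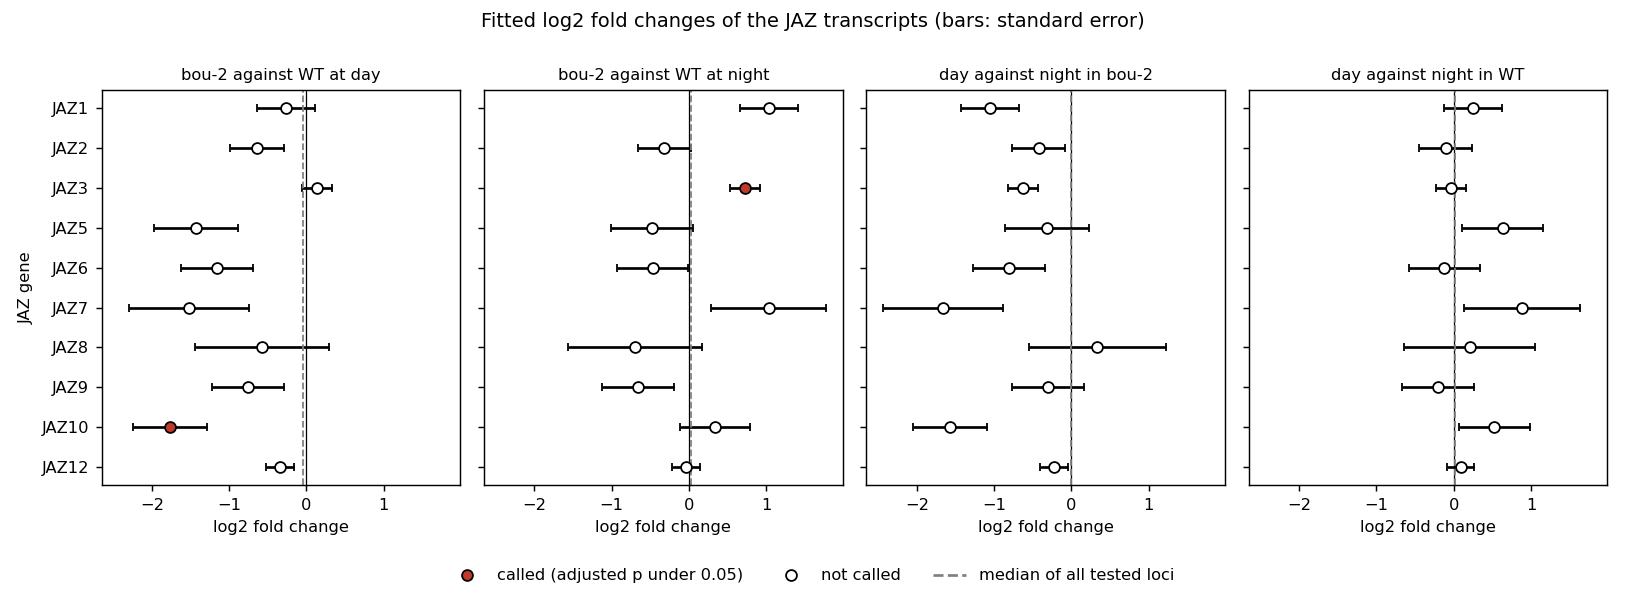
Fitted log2 fold changes of the 10 JAZ transcripts (points) with their standard errors (bars) for the genotypes at day and at night and for day against night in bou-2 and in WT; filled points are called at an adjusted p under 0.05 and the dashed line is the median of all tested loci. JAZ10 at day (-1.77) and JAZ3 at night (0.73) are the only filled points.

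At night JAZ3 was higher in bou-2, and no member was called lower. JAZ3 (chromosome 3, 6119707 to 6123044), also known as JAI3 from a mutant in which a truncated JAZ3 protein blocks jasmonate responses, had 38.6, 37.9 and 31.2 TPM in bou-2 night, against 20.3, 14.6 and 25.7 TPM in WT night. The 3 mutant libraries lay above the 3 WT libraries. Its log2 fold change was 0.73 (standard error 0.19, edgeR adjusted p = 0.0199). The call was lost without bou-2 night replicate 1 (0.66, adjusted p = 0.0733) or replicate 2 (0.69, 0.0640), and without WT night replicate 1 (0.73, 0.0617) or replicate 2 (0.54, 0.0692). Without WT night replicate 3, the WT library with high JAZ levels, it was 0.92 (adjusted p = 0.0132).

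JAZ1 (chromosome 1, 6621777 to 6623668), one of the first JAZ proteins shown to be degraded through COI1, did not pass the test. It had 44.1, 45.2 and 50 TPM in bou-2 night, against 22.0, 10.54 and 30.9 TPM in WT night, and the groups did not overlap. Its log2 fold change was 1.03 (standard error 0.38, adjusted p = 0.0722). The adjusted p was 0.0338 without WT day replicate 2 and 0.0441 without WT night replicate 3, and it was 0.0302 with DESeq2's Wald test and 0.0346 with limma on log2(TPM + 1). JAZ1 and JAZ3 were the 2 of 10 members whose mutant libraries all lay above the WT libraries at night, a pattern found in 37.7% of the tested loci. Among the tested loci 14.8% were called higher and 12.2% lower in bou-2 at night, against 1 and 0 of the 10 members.

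The other 8 members at night had log2 fold changes between -0.70 (JAZ8) and 1.03 (JAZ7), with adjusted p from 0.356 (JAZ9) to 0.924 (JAZ12). JAZ7 at night was 0.18 without bou-2 night replicate 1, its one high mutant library. If WT night replicate 3 was left out, JAZ9 was -0.14, JAZ6 -0.06, JAZ5 -0.07, JAZ2 -0.0153 and JAZ8 -0.12. JAZ9 had 120, 118 and 107 TPM in bou-2 night, against 149, 83.4 and 279 TPM in WT night. JAZ6 had 78.5, 86.6 and 86.9 TPM in bou-2 night, against 101, 59.3 and 166 TPM in WT night. The mutant libraries of JAZ9 and JAZ6 thus lay inside the range of the WT libraries. JAZ10, called lower at day, had 8.60, 8.62 and 8.55 TPM in bou-2 night, against 7.25, 3.21 and 8.60 TPM in WT night, with a log2 fold change of 0.33 (95% interval -0.56 to 1.22). JAZ12 had a log2 fold change of -0.03 (95% interval -0.39 to 0.32).

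Day was then set against night within each genotype. In bou-2, 8 of the 10 members had all 3 day libraries below all 3 night libraries in TPM, which held for 32.2% of the tested loci. JAZ5 and JAZ8 were the exceptions. The members share the same libraries, so this count is not one of independent genes. For JAZ9 (at most 101 TPM at day, at least 107 at night) and JAZ12 (73.7 and 80.6) the gap was narrow, with edgeR adjusted p = 0.737 and 0.491. JAZ10 had 1.93, 3.29 and 2.53 TPM in bou-2 day, against 8.60, 8.62 and 8.55 TPM in bou-2 night. Its log2 fold change was -1.57 (standard error 0.48, edgeR adjusted p = 0.0527). JAZ1 had 24.9, 19.7 and 16.3 TPM in bou-2 day, against 44.1, 45.2 and 50 TPM in bou-2 night, and a fitted change of -1.05 on the log2 scale (adjusted p = 0.0929, standard error 0.38). JAZ3 had 26.6, 18.4 and 18.4 TPM in bou-2 day, against 38.6, 37.9 and 31.2 TPM in bou-2 night, and a fitted change of -0.63 (adjusted p = 0.0548, standard error 0.19). For JAZ10 and JAZ1 the gap between the 2 times was wider than the range of the libraries at either time, and for JAZ3 it was narrower.

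With all 12 libraries in edgeR's fit, 0 of 10 members were called between day and night in bou-2, 3 had an unadjusted p under 0.05, DESeq2's Wald test called 3 (JAZ1, JAZ3 and JAZ10) and limma on log2(TPM + 1) called 2. The fit takes 1 spread per transcript from all 4 groups, including the wide WT groups. In a fit of only the 6 bou-2 libraries 4 members were called lower at day, namely JAZ6 (-0.79, adjusted p = 0.00128), JAZ1 (-1.03, 0.00666), JAZ10 (-1.55, 0.00712) and JAZ3 (-0.61, 0.0414). Without WT day replicate 2, JAZ10 (-1.57, adjusted p = 0.0120) and JAZ1 (-1.05, 0.0453) were called. Without WT night replicate 2, JAZ10 and JAZ3 were called, without WT day replicate 1 or 3 JAZ10, and JAZ3 without WT night replicate 3 or bou-2 day replicate 1. In the fit of all 12 libraries 7.69% of the tested loci were called lower and 7.68% higher at day in bou-2. Such shares were not taken for the other fits, so their member counts cannot be set against a background.

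In WT no member was called between day and night. edgeR's test called 0 of 10, none had an unadjusted p under 0.05, and DESeq2 and limma also called 0, while 5.58% of the tested loci were called higher and 3.88% lower. In 0 of 10 members did the day libraries lie apart from the night libraries, against 30.6% of the tested loci in either direction. The log2 fold changes ran from -0.20 (JAZ9) to 0.89 (JAZ7). For JAZ3 (95% interval -0.42 to 0.34) and JAZ12 (-0.27 to 0.44) a change of 1 log2 unit lay outside the interval, and for JAZ6 it did not (-1.02 to 0.78).

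Whether the effect of bou-2 differed between day and night was tested by the difference of the fold changes. For 0 of 10 members did this difference pass (3 had an unadjusted p under 0.05, and DESeq2 and limma called 0), and 0.538% of the tested loci were called with a higher and 0.645% with a lower effect at day. The difference was -2.10 for JAZ10 (standard error 0.66, adjusted p = 0.173), -1.30 for JAZ1 (0.53, adjusted p = 0.284), -2.55 for JAZ7 (1.08, adjusted p = 0.299) and -0.59 for JAZ3 (0.27, adjusted p = 0.343). JAZ10 lower at day and JAZ3 higher at night were therefore not shown to be particular to their time.

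Within the groups, the median spread of the JAZ transcripts was wider in WT than in the mutant at both times. The highest over the lowest TPM of the 3 libraries had a median over the 10 members of 1.49 in bou-2 day, 3.16 in WT day, 1.13 in bou-2 night and 2.86 in WT night, where the median of all tested loci was 1.31, 1.43, 1.18 and 1.22. A ratio over 2 was seen for 2 members in bou-2 day, 8 in WT day, 2 in bou-2 night and 8 in WT night, against 12.1%, 20.2%, 8.66% and 9.08% of the tested loci. JAZ3 and JAZ12 were the 2 members under 2 in both WT groups, and the members over 2 in the mutant were JAZ5 and JAZ8 at day and JAZ7 and JAZ8 at night. At day JAZ3 and JAZ5 went the other way, with ratios of 1.45 and 3.74 in bou-2 day against 1.36 and 3.05 in WT day. The members share the libraries of a group, so these counts are not independent. In WT most of the ratios rest on day replicate 2 and on night replicates 2 and 3. The summed TPM of the 10 members was 305, 253 and 239 in bou-2 day, 316, 645 and 242 in WT day, 423, 423 and 400 in bou-2 night, and 421, 258 and 681 in WT night. These sums are mostly JAZ9, JAZ6 and JAZ12, and the genotypes were not compared on them by a test.

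**Figure D3:**
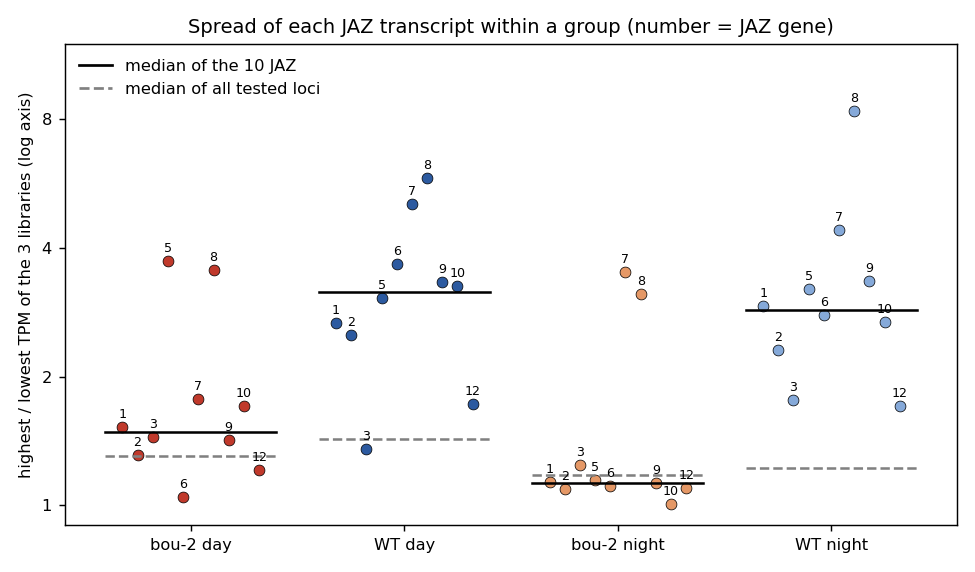
Highest over lowest TPM of the 3 libraries of a group (log axis) for each JAZ transcript, numbered by gene; the solid line is the median of the 10 members and the dashed line that of all tested loci. The members lie around 1.13 in bou-2 night and around 2.86 in WT night.

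Over the 12 libraries, on log2(TPM + 1), JAZ2 followed JAZ9 (Pearson r = 0.98) and JAZ6 (r = 0.97), and JAZ6 followed JAZ9 (r = 0.95). JAZ1 and JAZ3 followed each other (r = 0.87), while JAZ3 had an r of 0.14 with JAZ5, 0.26 with JAZ9 and -0.10 with JAZ8. These are descriptions over libraries that share depth and normalization and hold 4 groups. The loci most like the mean standardized profile of the members, among 15224 tested loci with a mean of at least 5 TPM in a group, were LOX4 (AT1G72520, r = 0.950), AOC3 (AT3G25780, 0.947), ILL6 (AT1G44350, 0.946), AT1G53903 (0.940) and IAR3 (AT1G51760, 0.939). LOX4 and AOC3 encode a lipoxygenase and an allene oxide cyclase of jasmonate synthesis, and ILL6 and IAR3 encode hydrolases that cleave jasmonoyl-isoleucine. LOX4 had 4.45, 3.6 and 3.14 TPM in bou-2 day, 4.29, 12.7 and 4.14 TPM in WT day, 13.9, 8.70 and 9.78 TPM in bou-2 night, and 6.65, 4.27 and 13.8 TPM in WT night. IAR3 had 32.7, 24.1 and 28.3 TPM in bou-2 day, against 26.3, 98.7 and 26.4 TPM in WT day, with the same WT library high. These loci were picked for their likeness to the members over these same libraries, so sharing the high library is not a separate result.

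The library pattern reached other jasmonate genes. In WT day replicate 2 the median ratio to the other libraries was 1.59 over 16 genes of jasmonate synthesis, 3.37 over 10 genes of jasmonate turnover, 3.0 over 17 jasmonate-responsive output genes and 1.80 over 10 touch and wound genes. In WT night replicate 3 these medians were 1.46, 1.21, 1.83 and 1.85, and in WT night replicate 2 they were 0.557, 0.593, 0.409 and 0.655. It was near 1 in these 3 libraries for the 11 receptor and co-repressor genes (1.10, 1.08 and 0.921). The 9 TIFY genes outside the 10 members gave 0.976, 0.941 and 0.985. For the 18 tested transcription factors bound by JAZ proteins it was 0.944, 1.19 and 0.86, so this list was not raised in WT day replicate 2. The touch and wound list thus moved with the JAZ genes in these WT libraries, and its part in the JAZ results was not tested. The mutant libraries differed in these lists too. The turnover median ran from 0.580 (bou-2 day replicate 3) to 1.52 (bou-2 day replicate 2). Across the mutant libraries it was 0.867 to 1.25 for synthesis, 0.707 to 1.18 for output and 0.765 to 1.18 for touch and wound genes.

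**Figure D4:**
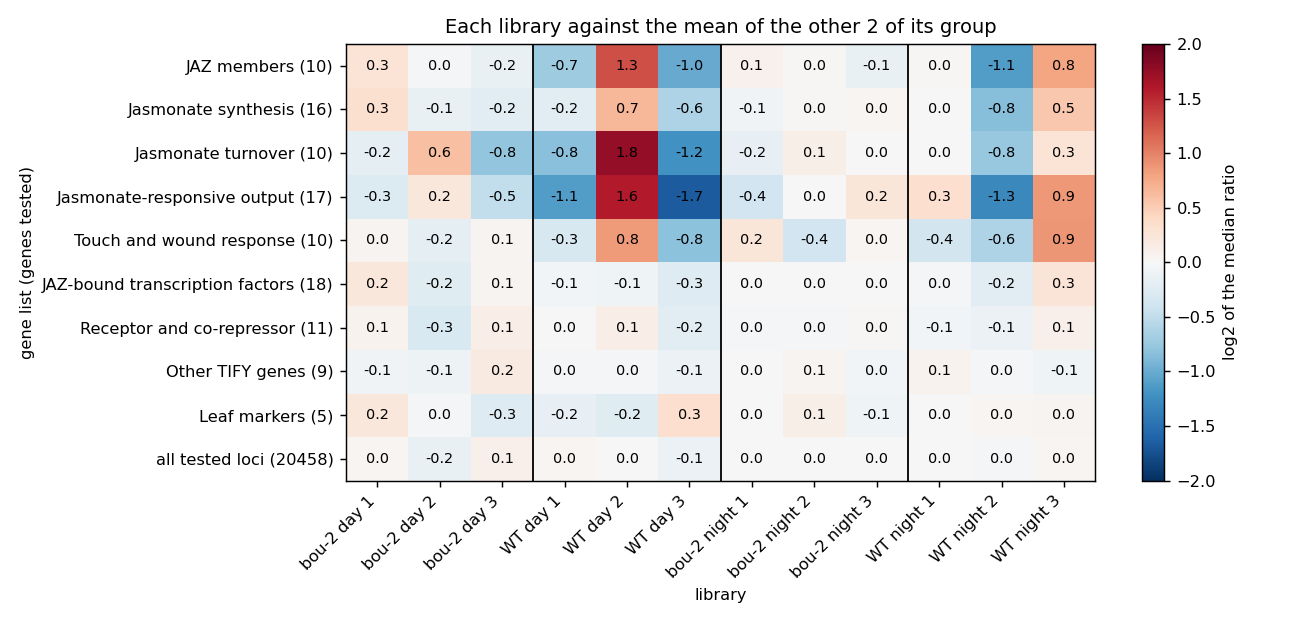
Log2 of the median, over the genes of each list (rows), of TPM + 1 in a library divided by its mean in the other libraries of the group (columns, bou-2 day, WT day, bou-2 night, WT night); red is above and blue below 0. WT day replicate 2 and WT night replicate 3 are red and WT night replicate 2 is blue in the JAZ, jasmonate and wound lists, while the row of all tested loci stays near 0.

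Of the 10 loci, 4 have more than 1 TAIR10 transcript in the table. At JAZ1, JAZ3 and JAZ9 the transcript used here made up 97.0% or more of the locus TPM on average in bou-2 day, bou-2 night and WT night, and 94.1% or more in WT day. JAZ10 was split more evenly. The transcript AT5G13220.1 made up 80.4% ± 10 of the locus TPM in bou-2 day, 72.5% ± 7.88 in WT day, 70.3% ± 1.27 in bou-2 night and 72.8% ± 7.36 in WT night (SD, n = 3). The share of AT5G13220.3 was 6.56% ± 5.92 in bou-2 day, 12.9% ± 6.88 in WT day, 16.6% ± 3.29 in bou-2 night and 16.8% ± 7.16 in WT night, so at each time the genotypes lay within each other's spread. Its level was 0, 0.516 and 0.226 TPM in bou-2 day, against 1.88, 2.52 and 1.68 TPM in bou-2 night, which did not overlap but did not pass the test (-2.76, adjusted p = 0.127). For bou-2 against WT at day AT5G13220.3 itself was at -2.78 on the log2 scale (adjusted p = 0.0925, standard error 1.10). With counts summed over the transcripts of a locus, JAZ10 at day was at -1.89 (adjusted p = 0.0151). In TAIR10.1 JAZ10 overlaps 1 annotated gene and JAZ12 2 genes on the other strand, and the library kit does not mark strand, so reads from such partners cannot be told apart.

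**Figure D5:**
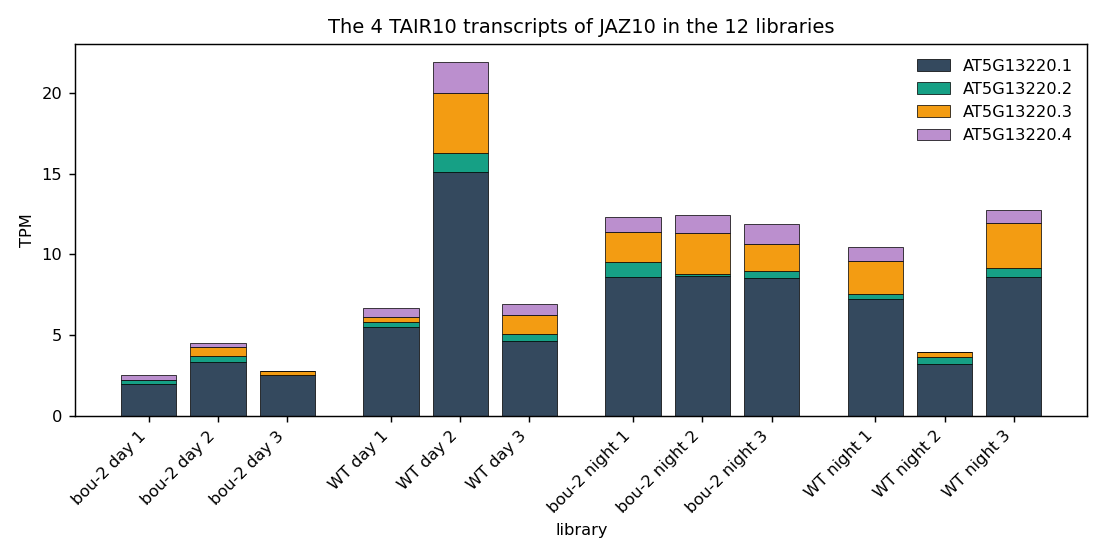
TPM of the 4 TAIR10 transcripts of JAZ10 stacked for each of the 12 libraries (bars start at 0). AT5G13220.1 is the largest share in every library, and WT day replicate 2 is the highest bar.

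Among the partners of the JAZ proteins, 3 of 11 receptor and co-repressor genes were lower and 1 was higher in bou-2 at day, and the same counts held at night. Over all tested loci 12.8% were called lower and 14.8% higher at day, and 12.2% and 14.8% at night. The counts of the lists in this paragraph were not tested against these shares. The co-repressor TPR1 was lower at day (-0.67, adjusted p = 0.00447, standard error 0.13) and at night (-0.55, adjusted p = 0.0112, standard error 0.13), and TPL, which encodes TOPLESS, was lower at night (-0.63, standard error 0.10, adjusted p = 0.00133). The TPR1 call was lost at day with just the 6 compared libraries and at night with limma. TPR3 and TPR4 were the other day calls, lost in 6 and 3 of 21 alternatives. TPR4 at night (-0.40, edgeR adjusted p = 0.0497) was lost in 11 of 21. ASK1, the SCF adaptor, was higher at both times (0.27 and 0.38, adjusted p = 0.0286 and 0.00580), but its day call was lost in 6 of 21 alternatives, among them the replicate block, no filter on low counts and leaving out bou-2 day replicate 2 or 3 or WT day replicate 1 (adjusted p up to 0.154). COI1 was not called between the genotypes at day (0.12, standard error 0.07, adjusted p = 0.272) or at night (-0.0047, standard error 0.07, adjusted p = 0.975), with 28.5, 27.3 and 30.6 TPM in bou-2 day, against 25.1, 25.5 and 24.6 TPM in WT day. Of the 18 tested transcription factors bound by JAZ proteins 2 were lower at day and 5 at night in bou-2. MYC5 (AT5G46830) was lower at both times (-2.66 and -2.98, edgeR adjusted p = 0.00155 and 0.000970). It had 2.01, 1.28 and 1.44 TPM in bou-2 day, against 11.02, 4.64 and 12.3 TPM in WT day. By its locus code MYC5 lies close to BOU (AT5G46800), the gene that holds the insertion. Whether the insertion acted locally on MYC5 was not tested. MYC4 was lower at night (-0.91, standard error 0.13, adjusted p = 0.00104), with 25.3, 23.1 and 20.8 TPM in bou-2 night, against 36.5, 36.6 and 48.0 TPM in WT night. Of the 9 other TIFY genes TIFY8, a TIFY protein without the Jas motif, was lower at both times (-1.20 and -1.43, adjusted p = 0.00463 and 0.00179), and the other 8 were not called.

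In jasmonate synthesis, edgeR called 3 of 16 tested genes higher in bou-2 at day and 3 lower, and at night 2 higher and 1 lower. AOS, the allene oxide synthase, was lower at day (-1.29, standard error 0.33, adjusted p = 0.0179), with 89.8, 69.5 and 52.7 TPM in bou-2 day, against 160, 218 and 114 TPM in WT day. Without bou-2 day replicate 2, bou-2 day replicate 3 or WT day replicate 2 the AOS call was lost (adjusted p up to 0.0707). AOC4 was lower at both times (-1.05 and -1.08), whereas ACX1 and KAT2 of peroxisomal beta-oxidation were higher at both times (0.59 and 1.00 for ACX1, 0.91 and 0.70 for KAT2). The ACX1 call at day was lost without WT day replicate 1 or with just the 6 compared libraries (adjusted p up to 0.0569). Of the 10 tested turnover genes CYP94B3, which hydroxylates jasmonoyl-isoleucine, was higher at day (3.26, adjusted p = 0.0230), with 0.63, 7.29 and 0.74 TPM in bou-2 day, against 0.32, 0.34 and 0.24 TPM in WT day. Only bou-2 day replicate 2 was far above the WT libraries. The call was lost without that library, without WT day replicate 1 or 3, with just the 6 compared libraries, with limma and with the replicate block (adjusted p up to 0.20), and DESeq2 gave the gene no adjusted p.

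Of the 17 jasmonate-responsive output genes, 4 were lower in bou-2 at day, and 1 was higher at night. Among all tested loci 12.8% were called lower and 14.8% higher at day, and 12.2% and 14.8% at night. VSP1, a vegetative storage protein and a standard jasmonate marker, had 4.86, 17.6 and 4.08 TPM in bou-2 day, against 54.8, 102 and 47.7 TPM in WT day. All mutant libraries lay below all WT libraries, and the log2 fold change was -2.96 (standard error 0.62, adjusted p = 0.00677), called in all alternatives tried, also without WT day replicate 2 (-2.55, adjusted p = 0.0163). VSP2 (-1.89, adjusted p = 0.0380), CLH1 (-2.39, adjusted p = 0.0440) and ERF1 (-3.82, adjusted p = 0.0308) were lower at day too, but were not called in 10, 12 and 5 of the alternatives. ANAC019, a NAC factor, was higher at night (2.79, standard error 0.56, adjusted p = 0.00529), with 16.6, 18.7 and 20.8 TPM in bou-2 night, against 3.11, 1.53 and 2.87 TPM in WT night. The median log2 fold change of this list was -1.77 at day and -0.57 at night, beside -0.04 and 0.02 over all tested loci. The list was high in WT day replicate 2, and without that library its median at day was -0.56, with 9 of 17 values below 0 where 16 had been. At night its median was -0.11 without WT night replicate 3 and -0.89 without WT night replicate 2. Of the 10 touch and wound genes 1 was higher at day (ZAT12, 1.16) and 3 at night in bou-2 (CML38 3.08, ZAT12 1.79 and WRKY40 1.09). The ZAT12 call at day was lost in 5 of 21 alternatives, including the replicate block and leaving out bou-2 day replicate 2 or 3 or WT day replicate 3 (adjusted p up to 0.103). The WRKY40 call at night was lost without bou-2 night replicate 1 or 3 or WT night replicate 1 or 2 (adjusted p up to 0.0934).

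Between day and night, few genes of these lists were called. Over all tested loci 7.69% were called lower and 7.68% higher at day in bou-2, and 3.88% and 5.58% in WT. EIL1, an ethylene-signalling factor bound by JAZ proteins, was lower at day than at night in bou-2 (-1.08, standard error 0.08, adjusted p = 1.91e-05) and in WT (-1.24, standard error 0.08, adjusted p = 9.10e-06). MYC4 was higher at day in bou-2 (1.19, standard error 0.13, adjusted p = 0.000224), with 44.5, 43.6 and 55.3 TPM in bou-2 day, against 25.3, 23.1 and 20.8 TPM in bou-2 night. JAR1, which joins jasmonic acid to isoleucine, was higher at day in bou-2 (0.51, adjusted p = 0.00532) and in WT (0.43, adjusted p = 0.0173). Its WT call was lost with limma, with just the 6 compared libraries and without WT night replicate 1 or 2 (adjusted p up to 0.137). COI1 was higher at day in bou-2 (0.26, adjusted p = 0.0380), with 28.5, 27.3 and 30.6 TPM in bou-2 day, against 25.5, 26.3 and 27.9 TPM in bou-2 night, and the groups overlapped. That call was lost in 9 of 21 alternatives, including limma, no filter, the replicate block and leaving out bou-2 day replicate 2 or 3, bou-2 night replicate 1 or 2 or WT night replicate 3 (adjusted p up to 0.368). Among the touch and wound genes WRKY40 (-1.85, adjusted p = 0.00304) and TCH3 (-1.55, adjusted p = 0.00644) were lower and TCH2 (0.90, adjusted p = 0.000936) was higher at day in bou-2, and TCH2 (1.0, adjusted p = 0.000671) was higher at day in WT. ERF1 (-3.96, edgeR adjusted p = 0.0397) and LOX6 (-0.46, 0.0135) were lower and TOE1 (0.45, 0.0129) was higher at day in bou-2. TPL was lower at day in WT (-0.37, edgeR adjusted p = 0.0396). The calls of ERF1, LOX6, TOE1 and TPL were lost in 8, 4, 1 and 12 of 21 alternatives.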

How the data were processed

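Leaf RNA of 12 libraries was sequenced as paired reads, 12 libraries to a lane. The authors quantified the reads against the TAIR10 transcripts with kallisto 0.43.0 and deposited estimated counts and TPM per transcript. The submitters' processing notes also name CASAVA and sleuth 0.28.1. Columns of the authors' group means, fold changes and q-values were not used. Of 41415 lines, 23 identical repeats were dropped, which left 41392 transcripts of 33326 loci. Estimated counts, 15911356 to 33046562 per library, were rounded and tested with edgeR 4.0.16 (R 4.3.3): filterByExpr with a minimum count of 10 and a minimum total of 15, TMM factors (0.892 to 1.07), 1 mean per group over all 12 libraries, the quasi-likelihood F test and Benjamini-Hochberg adjustment over 26153 transcripts. A call is an adjusted p under 0.05. A standard error is the absolute log2 fold change divided by the root of F. A 95% interval takes a normal multiple of that standard error on each side, so it is narrower than the F test would give. The fitted common dispersion of 0.0807 corresponds to a coefficient of variation of 28.4% between replicates. The test was tried on simulated counts first. The labels call the libraries biological triplicates, and the highest and lowest chi-square per transcript between replicates were 85.7 and 9.42, so none was counted as a repeat of another.

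The members and the gene lists were chosen with earlier results of these data known. All 10 members were named in every comparison; of each other list, counts are given and up to 4 called genes per comparison with the largest change, together with BOU and the 5 loci most like the members. The other lists hold 9 TIFY genes, 11 receptor and co-repressor genes, 20 JAZ-bound transcription factors, 18 genes of jasmonate synthesis, 11 of jasmonate turnover, 17 output genes, 11 touch and wound genes, and 5 leaf, 5 flower and 4 root markers. Alternatives were DESeq2 1.42.0 (size factors, Wald test), limma 3.58.1 on log2(TPM + 1) and log2(TPM + 0.1), no filter, counts summed per locus, only the 6 libraries compared, a replicate block, thinned counts and leaving out each library. Promoter windows came from the RefSeq annotation of TAIR10.1; the deposited table holds no coordinates.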

Additional observations from a re-analysis of the deposited data

Results flagged for a closer look

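TOE1, an AP2-type floral repressor that JAZ proteins bind, was the only gene named here whose bou-2 effect differed between day and night by the test of the difference itself, at 0.71 on the log2 scale (standard error 0.14, edgeR adjusted p = 0.0449). It had 57.3, 48.3 and 56.1 TPM in bou-2 day, against 49.5, 52.7 and 58.7 TPM in WT day, where the groups overlapped. It had 43.7, 42.8 and 43.5 TPM in bou-2 night, against 67.5, 68.2 and 74.0 TPM in WT night, where they did not. The difference was called in 8 of 20 alternatives, with adjusted p up to 0.128.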

How the results depend on the processing

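JAZ members lower in bou-2 at day numbered 1 in the reported fit, 3 with DESeq2's Wald test and 0 when the fit held just the 6 compared libraries, and 0 to 1 when 1 library was left out. Members higher at night numbered 1, 2 with DESeq2's Wald test or with limma on log2(TPM + 1) or log2(TPM + 0.1), and 0 to 2 with 1 library left out. Members lower at day than at night in bou-2 numbered 0 in the reported fit, 3 with DESeq2, 2 with limma on log2(TPM + 1) or log2(TPM + 0.1), 1 with counts summed per locus, 4 when the fit held just the 6 compared libraries, 1 with thinned counts, and 0 to 2 with 1 library left out. The other 7 counts stayed at 0 throughout. DESeq2 size factors and no filter on low counts changed no count. Shares called over all tested loci were taken in the reported fit only.

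Replicate numbers are shared by the groups. Over 18 same-numbered pairs the deviations from the group means correlated between -0.121 and 0.067, so no pairing by number was seen in expression. Pairs of unlike number were not taken for comparison, and matched harvest or processing was not tested. With a replicate block, 1 member was lower at day (JAZ10 -1.72, adjusted p = 0.0429) and 1 higher at night (JAZ3 0.73, adjusted p = 0.0298), and 0 were called elsewhere.

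Of 50 member values 20 changed sign in some alternative, none of them called. JAZ12 at night was 0.10 with limma under either pseudocount. Between day and night in WT, JAZ12 was -0.0267 with limma on log2(TPM + 1) and -0.027 on log2(TPM + 0.1), JAZ3 was 0.019 with counts summed per locus and JAZ8 was -0.0204 with thinned counts. Leaving out 1 library gave, for bou-2 against WT at day, -0.50 to 0.20 for JAZ1, -0.0221 to 0.26 for JAZ3 and -1.03 to 0.0036 for JAZ9, and -0.20 to 0.17 for JAZ12 at night. For day against night in WT it gave -0.22 to 0.60 (JAZ1), -0.65 to 0.20 (JAZ2), -0.22 to 0.15 (JAZ3), -0.0344 to 1.04 (JAZ5), -1.0 to 0.29 (JAZ6), -0.14 to 1.31 (JAZ7), -0.27 to 0.79 (JAZ8), -0.97 to 0.32 (JAZ9), -0.20 to 0.79 (JAZ10) and -0.0766 to 0.30 (JAZ12). In bou-2 it gave -0.72 to 0.0595 (JAZ5) and -0.30 to 0.96 (JAZ8), and for the difference of the effects -0.62 to 0.22 (JAZ2), -1.10 to 0.19 (JAZ6), -0.50 to 0.74 (JAZ8) and -0.62 to 0.66 (JAZ9). The cause of these changes was not tested. Standard errors of members with a wide WT spread limit what 3 libraries a group can detect, and JAZ7 and JAZ8 are further limited by their counts.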

Other observations

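Further jasmonate genes, chosen after their values were seen, also differed among the WT libraries. LOX2, the main leaf lipoxygenase of jasmonate synthesis, had 278, 206 and 191 TPM in bou-2 day, against 288, 1377 and 369 TPM in WT day, and 471, 502 and 650 TPM in bou-2 night, against 760, 482 and 1784 TPM in WT night. MYC2, the leading activator that JAZ proteins hold, had 39.6, 25.1 and 19.9 TPM in bou-2 day, against 46.4, 93.0 and 34.7 TPM in WT day, and 26.0, 23.1 and 22.8 TPM in bou-2 night, against 26.9, 12.3 and 55.3 TPM in WT night. Both were highest in WT day replicate 2 and WT night replicate 3 of their groups.

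The defensin PDF1.2, a marker of the branch that jasmonate and ethylene drive together, was likewise highest in WT day replicate 2 and WT night replicate 3 of the WT groups. It had 490, 1015 and 532 TPM in bou-2 day, against 42.9, 16586 and 120 TPM in WT day, and 436, 667 and 405 TPM in bou-2 night, against 503, 114 and 580 TPM in WT night. WT day replicate 2 was above all other libraries, and the other WT day libraries were below all 3 mutant libraries. PDF1.2 has near-identical copies, so its share of these reads is uncertain.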
